A study of Mus musculus with 6 samples.

Results

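Mesothelial cells were chosen from 6 single-cell RNA libraries of the mouse uterine tube (oviduct) by the detection of a short set of marker genes, and 107 of 19619 cell barcodes met the rule. A barcode entered if it had at least 500 UMIs (unique molecular identifiers, each standing for 1 captured RNA molecule) and 250 detected genes. It was kept as mesothelial if at least 3 of the 6 genes Upk3b, Lrrn4, Msln, Wt1, Gpm6a and Upk1b had a UMI. It also had to show fewer than 3 of 8 ciliated-cell genes (Foxj1, Dynlrb2, Dnah12, Cfap43, Spag17, Morn5, Rgs22, Meig1) and fewer than 2 of 4 genes of a Slc6a2-expressing epithelial state (Slc6a2, Galntl6, Sprr1a, Kcnip4). All 6 libraries were prepared with the 10x Genomics 3' v2 kit from adult C57BL6 females in estrus, with no treatment or genetic modification stated. Tubes were cut into a distal section, which is the ovarian end, and a proximal section, which is the uterine end, and tissue of a section was pooled over a group of mice before enzymatic dissociation and removal of dead cells. There were 3 distal libraries (groups 1, 2 and 3) and 3 proximal libraries (groups 2, 3 and 4), named here by section and group number. The replicate is the library, and nothing in the labels ties a cell to one animal.

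The mesothelium is the flattened, mesoderm-derived cell layer that covers the serosal surface of abdominal organs, including the outer wall of the uterine tube and its supporting ligament. Its cells carry both keratins and vimentin, make a slippery glycocalyx rich in mesothelin and mucin 16, and release complement factors, protease inhibitors and matrix into the peritoneal fluid. In the female tract they border the ovarian surface epithelium and the fimbrial epithelium, and the Wilms tumour factor WT1, retinoic acid synthesis and R-spondin signalling are all known features of coelomic mesothelium.

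Mesothelial barcodes were rare and unevenly spread. Distal 1 held 41 of 7171 barcodes (0.572%, exact Clopper-Pearson 95% interval 0.411 to 0.775%), distal 2 held 2 of 4339 (0.0461%, 0.00558 to 0.166%) and distal 3 held 22 of 5798 (0.379%, 0.238 to 0.574%). Proximal 2 held 0 of 836, for which the same interval reaches 0.44% (3 counts would be 0.359%). Proximal 3 held 8 of 327 (2.45%, 1.06 to 4.76%) and proximal 4 held 34 of 1148 (2.96%, 2.06 to 4.11%). These intervals cover counting error only. The proximal libraries thus included both the highest shares and the only library without a mesothelial barcode. That library, proximal 2, also held 0 smooth muscle and 3 blood endothelial barcodes by the class rules used below. It held 348 fibroblast, 122 non-ciliated epithelial and 29 T and NK barcodes, so its lack of cells was not particular to the mesothelial class. The mean share was 0.332% ± 0.266 in the distal and 1.80% ± 1.58 in the proximal libraries (SD, n = 3 each), a difference of 1.47 percentage points that was smaller than the spread between the proximal libraries (two-sided exact permutation test, p = 0.4, where the smallest p for 3 against 3 is 0.1). Since detection depends on depth, every cell with at least 1000 UMIs was also thinned to 1000 UMIs. This left out 524 of 7171, 193 of 4339 and 499 of 5798 cells in distal 1, 2 and 3. In proximal 2, 3 and 4 it left out 105 of 836, 217 of 327 and 509 of 1148. The shares were then 0.346, 0.0241 and 0.113% in the distal libraries and 0, 2.73 and 3.13% in the proximal libraries (exact permutation p = 0.4). They are shares of the deeper cells only, and that of proximal 3 rests on 3 of 110 cells. The difference was 2.37 points without proximal 2 and 0.891 without proximal 4.

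**Figure D1:**
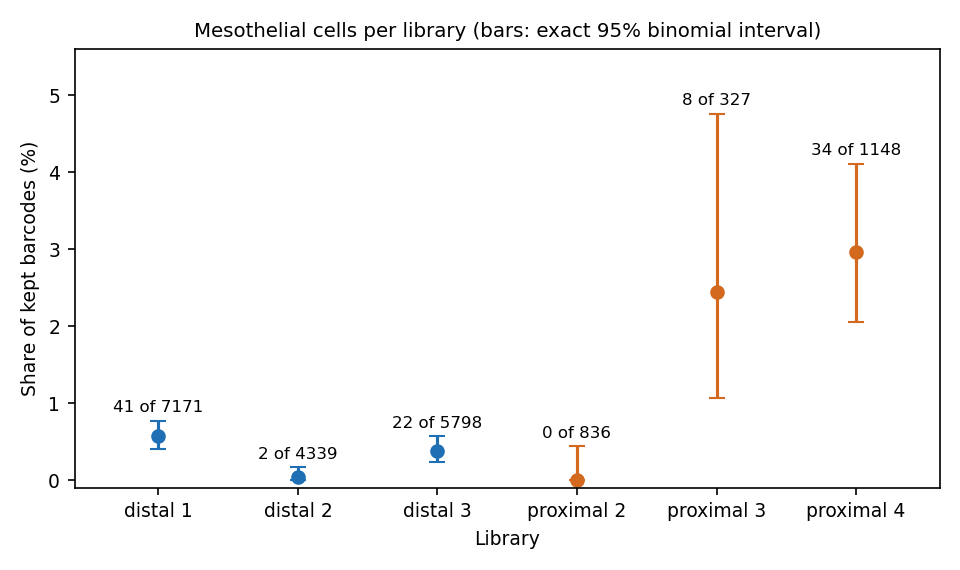
Share of kept barcodes (percent, vertical axis) that met the mesothelial rule in each of the 6 libraries (horizontal axis), with exact 95% binomial intervals and the counts printed above. Proximal 3 and proximal 4 lie at 2.45 and 2.96%, the distal libraries at or below 0.572%, and proximal 2 at 0.

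Depth differed strongly between the libraries. Deposited UMIs ran from 426707 in proximal 3 to 32488145 in distal 1. The median mesothelial cell had 6523 UMIs in distal 1, 12226 in distal 2, 7970.5 in distal 3, 1068.5 in proximal 3 and 1978 in proximal 4, against medians over all cells of 3407, 4651, 2979.5, 733 and 1083. The median mesothelial cell therefore held more UMIs than the median cell of the same library in all 5 libraries that contained them. As the rule reads detection, it favours deep barcodes, so this is not separate from the choice of cells. After thinning to 1000 UMIs, 23 of 41 rule cells in distal 1 and 6 of 22 in distal 3 still met the rule. The share of mitochondrial UMIs in mesothelial cells had medians of 3.92, 3.64, 3.26, 1.26 and 1.79% in the same order, and no mesothelial cell exceeded 20%. Of the 107 barcodes, 10 were scored as likely doublets, against 849 of all barcodes (4.33%). All 10 were distal: 4 in distal 1, 1 in distal 2 and 5 of 22 in distal 3. The number scored in a library was fixed in advance by its size. It was 411, 151 and 269 of all barcodes in distal 1, 2 and 3, and 6, 1 and 11 in proximal 2, 3 and 4. Few proximal barcodes could therefore be scored, and the split between regions is not a result about mesothelial cells. Of the 107, 5 had a barcode sequence that also occurred in another library (193 such shared barcodes over the 15 library pairs).

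Levels below are CPM, the gene's UMIs summed over the mesothelial cells of a library and scaled to 1000000 UMIs of those cells. Since 3' UMIs count molecules at their end, they carry no length scaling. In proximal 3, whose 8 cells held 16980 UMIs, 1 UMI is 58.9 CPM, so low values there rest on few UMIs. Means and SDs are over the 4 libraries with at least 5 mesothelial cells (distal 1, distal 3, proximal 3 and proximal 4, 105 cells), and distal 2, with 2 cells, is given as a value only. Comparisons with other classes are descriptions without a test, because the cells were chosen by measured genes. The other classes were set by marker rules of the same kind: fibroblasts (7653 cells), non-ciliated epithelium (3311), blood endothelium (559), smooth muscle (1528), T and NK cells (161) and myeloid cells (225).

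The 6 genes of the rule marked the cells to different degrees, and as the rule used them their values are a description. Gpm6a, a neuronal-type membrane glycoprotein found in mesothelium, stood at 1527 ± 333 CPM (SD, n = 4) and had a UMI in 88.8% of the cells. Among the 5 classes compared by level below it was highest in blood endothelium at 156 CPM. Msln, mesothelin, stood at 822 ± 206 CPM in 86.0% of the cells, and Upk1b, a uroplakin of the tetraspanin family, at 573 ± 89.5 CPM in 79.4%. Msln was the rule gene shared with the Slc6a2-expressing epithelium, where 34.5% of cells had a UMI, and with non-ciliated epithelium (10.6%).

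Wt1 and Upk3b lay at the extremes of selectivity. Wt1 stood at 533 ± 230 CPM in mesothelial cells and at 255 CPM in non-ciliated epithelium, where 68.2% of cells had a UMI, so that it separated the classes least. In T and NK cells, which should lack Wt1, the share was 2.48% at a median of 1914 UMIs against 5621 in mesothelial cells. Upk3b, the uroplakin most used to mark mesothelium, stood at 358 ± 205 CPM in 73.8% of the mesothelial cells and in at most 0.16% of the cells of any other class. Lrrn4, a leucine-rich repeat membrane protein, stood at 274 ± 78.7 CPM in 62.6%.

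The rule genes varied between libraries without a common order. Upk3b was 548 CPM in distal 1, 409 in distal 2, 257 in distal 3, 118 in proximal 3 and 508 in proximal 4. Wt1 was 431, 245, 477, 353 and 868 CPM in that order, highest in proximal 4. Gpm6a was 1932, 1186, 1180, 1649 and 1347 CPM, with distal and proximal libraries interleaved.

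The barcodes on either side of the threshold differed in kind. Exactly 3 rule genes were found in 22 barcodes, 4 in 22, 5 in 19 and all 6 in 44. Just outside, 387 barcodes had exactly 2, of which 328 met the epithelium rule. In those 387 the rule genes were mostly Wt1 (99.2%) and Msln (91.2%), while Upk3b, Lrrn4 and Upk1b were found in 1.03, 1.29 and 0.775%. Muc16, a mucin that was not in the rule, had a UMI in 0.3% of the barcodes with exactly 2 rule genes, 27.3% with 3, 59.1% with 4, 78.9% with 5 and 68.2% with 6. Cldn15 rose over the same steps from 3.4% through 45.5, 54.5 and 89.5% to 95.5%, and the fibroblast proteoglycan gene Dcn from 17.6% through 72.7, 95.5 and 94.7% to 97.7%. Epcam, an epithelial adhesion molecule, ran the other way, from 88.9% at 2 genes to 40.9% at 3 and 4.5% at 4, but was back at 36.8% at 5 and 25.0% at 6. The median depth was 2474.5 UMIs at 3 rule genes and 8347 at 6, so the steps also differ in depth, whose part was not tested.

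**Figure D2:**
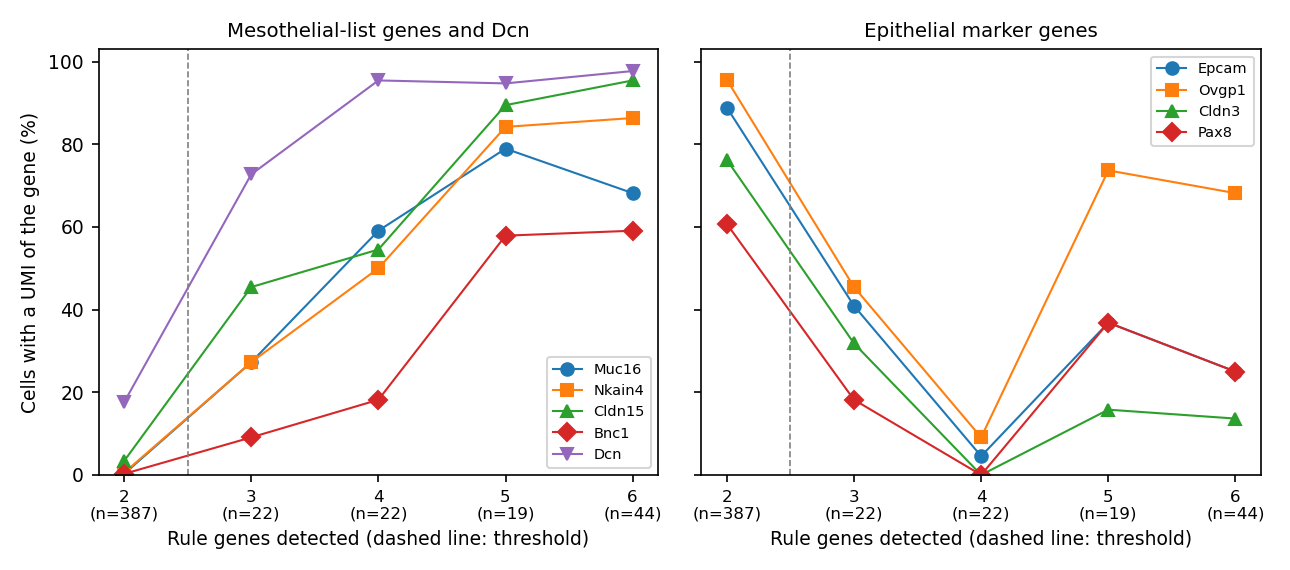
Percent of barcodes with at least 1 UMI of a gene (vertical axis) against the number of the 6 rule genes detected (horizontal axis, n in brackets, dashed line at the threshold). Mesothelial-list genes and Dcn rise from 2 to 4 detected genes on the left, and epithelial genes such as Epcam fall from 88.9 to 4.5% on the right before coming back at 5 and 6.

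Of the 107 barcodes, 58 met no other class rule, 36 met the fibroblast rule, 13 the epithelium rule (8 of them in distal 3) and 2 the smooth muscle rule, with 2 barcodes meeting 2 of these rules, and none met the endothelium, T and NK or myeloid rule. The 13 epithelium-rule barcodes had a median of 10042 UMIs. In them Ovgp1, the oviduct glycoprotein, which is not in the epithelium rule, reached 3216 CPM, Upk3b was found in 38.5% and Muc16 in 23.1%. The 58 barcodes without another rule had a median of 2782.5 UMIs, Ovgp1 at 172 CPM, Upk3b in 70.7% and Muc16 in 55.2%. The 35 that met the fibroblast rule and not the epithelium rule had Muc16 in 80.0% and Dcn at 4153 CPM. Whether the epithelium-rule barcodes hold 1 cell or several was not tested, and the counts of called genes without them are given beside each result.

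Markers outside the rule went with the label in part, and their lists were chosen with earlier results of these data known. Of a list of 36 further mesothelial genes, the median mesothelial cell had 22 detected, against 8 in non-ciliated epithelium, 5 in fibroblasts, 3 in blood endothelium and 1 in T and NK cells. The median mesothelial cell had 5621 UMIs against 3324 over all cells, so these counts also differ in depth, whose part was not tested. Of the list genes with at least 20 CPM, 14 of 31 stood at least 4-fold above each class compared below. Genes of an ovarian surface and gonad list are given below as well. Calb2 (calretinin, a marker of human mesothelium) had no UMI, and Prg4, Tcf21, Tbx18 and Procr lay under 20 CPM. Of the T and NK list, 7 of 8 genes were at 0 and Ptprc, the pan-leukocyte gene, was found in 1 cell. Of the endothelial list 4 of 8 were at 0 (Cdh5, Flt1, Emcn and Tie1), and of the myeloid list C1qa and Adgre1 were at 0.

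The fibroblast list was expressed in part. Dcn stood at 3189 ± 972 CPM, against 5547 in fibroblasts, but Pdgfra, a receptor that marks fibroblasts, stood at 5.94 against 528 CPM, Dpt at 8.86 against 823 and Lum at 30.2 against 1141. The summed share of the fibroblast list was 0.551, 0.466, 0.494, 0.453 and 0.347% of UMIs from distal 1 to proximal 4, and that of the epithelial list was 0.094, 0.025, 0.223, 0.024 and 0.121%. The epithelial share was thus highest in distal 3, which held most of the epithelium-rule barcodes. Haemoglobin-list genes made 0.561% of mesothelial UMIs in proximal 4 and at most 0.018% elsewhere, and 738 of the 763 such UMIs in proximal 4 came from 1 barcode. Of the 191 smooth-muscle-list UMIs in distal 1, 120 came from 2 barcodes.

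At the level of all genes, 240 of 7792 genes (3.08%) with at least 20 CPM in mesothelial cells stood at least 4-fold above their mean in each of fibroblasts, non-ciliated epithelium, blood endothelium, smooth muscle and T and NK cells. For 121 of the 240, the lowest mesothelial library lay above the highest library of any of the 5 classes. As the 240 were picked for a high mesothelial mean, this favours such separation, and the share over all 7792 genes was not counted. The count lay between 193 (without proximal 3) and 331 (without distal 3) when barcodes or libraries were left out. Without proximal 3, the shallowest library, 159 of the 240 genes remained. Some genes passed on very few cells: Gm35410 and Rpl31-ps7, each at a mean of 29.4 CPM, had UMIs in 1 cell only.

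The surface and adhesion genes opened this group. Muc16, the CA125 mucin that binds mesothelin, was 195 CPM in distal 1, 164 in distal 2, 173 in distal 3, 177 in proximal 3 and 302 in proximal 4, a mean of 212 ± 60.8 (SD, n = 4). It stood at 0.26 CPM in fibroblasts and at 0 in the other 4 classes, and it was found in 59.8% of mesothelial cells and in 0 of 161 T and NK cells. Cldn15, a pore-forming claudin of tight junctions, was 558, 654, 342, 353 and 324 CPM in the same order. Its mean of 394 ± 109.7 CPM was 19.9-fold above fibroblasts. Nkain4, which encodes a partner of the sodium pump, had a mean of 424 ± 187 CPM and stood 30.6-fold above fibroblasts. Cdh3, P-cadherin, had a mean of 157 ± 55.3 CPM and stood 8.20-fold above blood endothelium. Of 23 glycocalyx and junction genes, 16 reached the level for comparison and these 3 (Muc16, Cldn15, Cdh3) passed 4-fold. Podxl, a sialomucin, stood at 206 ± 139.8 CPM below blood endothelium (368), and Cdh1, E-cadherin, at 76.0 ± 88.8 CPM below epithelium (556).

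Of the complement and defence list, 5 of 13 measured members passed 4-fold: C3, Slpi and C2, and at lower levels C4b (125 ± 65.6 CPM) and Cfb (118 ± 107 CPM). C3, the central complement protein, was 4130.3 CPM in distal 1, 2290.2 in distal 2, 2926 in distal 3, 2650.2 in proximal 3 and 3966 in proximal 4. Every mesothelial value lay above the highest library of the 5 classes compared (451 CPM), which did not include myeloid cells. The mean of 3418 ± 739 CPM was 9.73-fold above non-ciliated epithelium. C2, a protease of the classical pathway, stood at 589 ± 228 CPM, 13.9-fold above fibroblasts. Slpi, a secreted inhibitor of leukocyte proteases, was 2389, 1759, 2682, 177 and 1280.3 CPM, so that proximal 3, with 3 UMIs, was far below the others. Its mean of 1632 ± 1143 CPM was 39.0-fold above smooth muscle.

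Keratins and vimentin were expressed together, as is typical of mesothelium, but at levels that other classes shared. Krt19 stood at 1274 ± 436 CPM against 999 in non-ciliated epithelium, Krt18 at 719 ± 415 against 1785, and Krt7 at 507 ± 262 against 130.0. Vim stood at 841 ± 564 CPM against 1070.5 in fibroblasts. Only Krt14 of the 7 measured members passed 4-fold, at a mean of 59.5 CPM, and distal 1 (233 CPM) supplied it: distal 3 was 4.68 and both proximal libraries 0, and 1 cell gave 52.1% of its UMIs.

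Matrix genes were expressed below the fibroblast level. None of the 25 measured matrix and basal lamina genes passed 4-fold. Col1a1 stood at 663 ± 314 CPM against 6296 in fibroblasts, Col3a1 at 654 ± 179 against 4114, and Sparc at 1258 ± 344 against 3351. Fmod, a small leucine-rich proteoglycan outside that list, was 143 CPM in distal 1, 123 in distal 2, 117 in distal 3, 353 in proximal 3 and 177 in proximal 4, against 3.53 in fibroblasts. The secreted binding protein Igfbp6 stood at 4639.8 ± 1478 CPM, 4.57-fold above fibroblasts.

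Genes of retinoid and Wnt signalling marked the cells as well. Aldh1a2, the enzyme that makes retinoic acid from retinal, was 233, 327, 136, 412 and 199 CPM from distal 1 to proximal 4 and 2.24 CPM in fibroblasts. Stra6, a membrane receptor for vitamin A uptake, had a mean of 289 ± 220.3 CPM, 24.3-fold above fibroblasts, with 201 CPM in distal 1, 70.2 in distal 3, 589 in proximal 3 and 294 in proximal 4. These were the 2 of 11 measured retinoid genes that passed 4-fold. Of the Wnt list 4 of 14 passed: the agonist Rspo1, its receptor Lgr5, and the ligands Wnt4 and Wnt2b. Rspo1 was 726, 736, 749, 471 and 434 CPM, a mean of 595 ± 165 that was 7.89-fold above fibroblasts. Lgr5 stood at 37.5 ± 20.9 CPM with a UMI in 15 cells and Wnt2b at 28.4 ± 20.7 CPM with a UMI in 24.

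**Figure D3:**
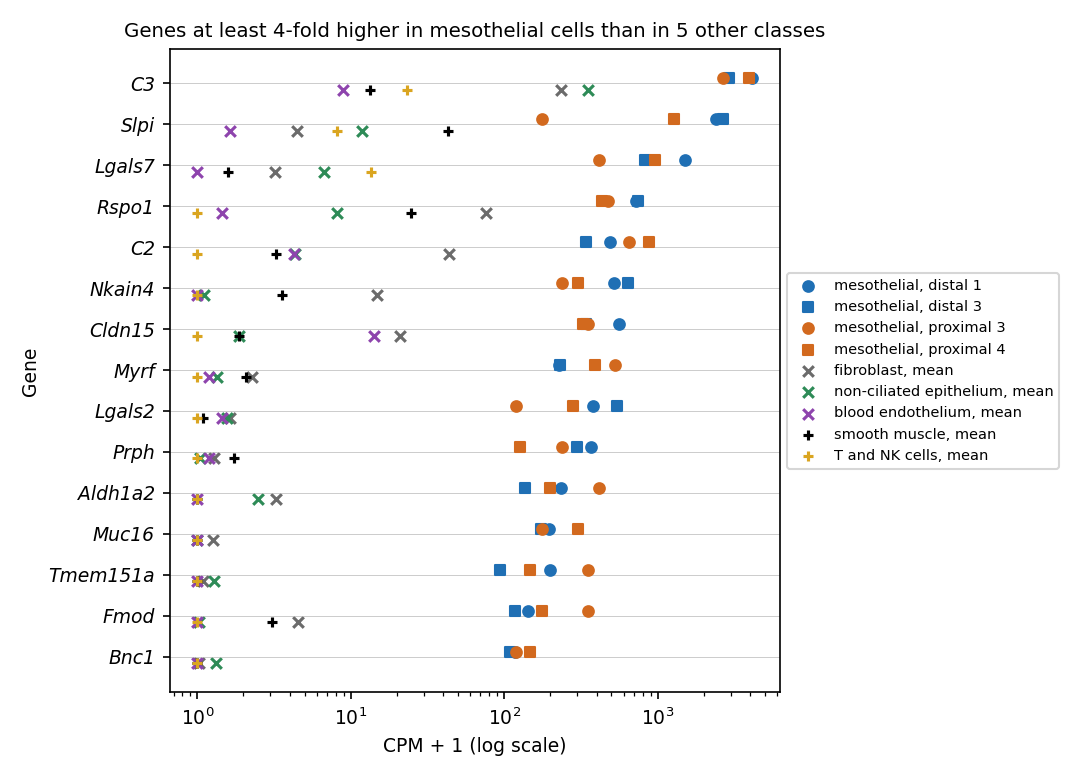
CPM plus 1 on a log scale (horizontal axis) of 15 genes (vertical axis) that stood at least 4-fold higher in mesothelial cells, with circles and squares for the 4 mesothelial libraries (n = 4) and crosses or plus signs for the mean of each of 5 other classes. Muc16, Bnc1 and Tmem151a lie near 0 CPM in all 5 other classes, while C3 also reaches 351 CPM in non-ciliated epithelium.

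The genes with the largest ratios were absent or nearly absent in the 5 other classes compared, so their levels are given without a fold. Ciliated cells, the Slc6a2-expressing epithelium and myeloid cells were not among these classes. Lgals7, a galectin, was 1514 CPM in distal 1, 777 in distal 2, 824 in distal 3, 412 in proximal 3 and 964 in proximal 4, against at most 12.6 CPM in a compared class (T and NK cells). Myrf, a membrane-bound transcription factor, was 227, 286, 229, 530.0 and 390.0 CPM and at most 1.28 in a compared class. Bnc1, a zinc-finger protein of stratified epithelium and mesothelium, had a mean of 122 ± 17.2 CPM and the narrowest spread of these. Lgals2, another galectin, stood at 329.9 ± 178 CPM, Prph, the intermediate filament peripherin, at 257 ± 104, Tmem151a at 198 ± 112 and Pcnx2 at 178 ± 41.8. Tm4sf5 (112 CPM), Crym (108), Rpp25 (107), Lvrn (90.3), Chst4 (54.9) and Fgf9 (51.2) completed the named genes with 2 uncharacterised loci. Chst4, Lvrn and Fgf9 were at 0 in proximal 3, whose 8 cells held 16980 UMIs in all. Ahsp, known as a chaperone of alpha globin in red cells, stood at 93.4 ± 19.8 CPM and in 26.2% of the cells, in every library, including distal 3 (70.2 CPM), where only 10 haemoglobin-list UMIs were counted.

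Antigen presentation genes of class II were found in part of the mesothelial cells. Cd74, the invariant chain of MHC class II, was 418 CPM in distal 1, 81.8 in distal 2, 660.1 in distal 3, 294 in proximal 3 and 1030.1 in proximal 4, 15.3-fold above T and NK cells in the mean. It was found in 40.2% of mesothelial cells, in 1.74% of fibroblasts (median depth 3436 UMIs) and in 46.2% of myeloid cells, which were not among the 5 classes compared and held 11641 CPM. H2-Ab1 was found in 29.0%, H2-Eb1 in 25.2% and H2-Aa in 21.5% of mesothelial cells, while Ciita, the class II transactivator, was found in 1 cell. Of the myeloid list, Tyrobp was found in 2 of the 107 cells and Fcer1g in 1, against 96.9 and 98.2% of myeloid cells. Other genes of myeloid cells were more frequent: Csf1r, the receptor for colony-stimulating factor 1, had a UMI in 17 cells (15.9%) and in none of the T and NK cells, Cd68, a lysosomal protein, in 7 cells (6.54%), and Trem2, a lipid-sensing receptor outside the list, in 13 cells (12.1%). Of the 107 cells, 79 had no gene of the myeloid list and none had 3 or more. The part of myeloid RNA in the class II values was not tested. Il18, an inflammasome cytokine, stood at 155 ± 111 CPM, with 239.9 and 262 CPM in distal 1 and 3 and 58.9 in each proximal library. In proximal 3 that value is 1 UMI.

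Genes shared with the gonad were detected at low levels. Of an ovarian surface and gonad list of 12 genes, 3 reached 20 CPM (Star, Amhr2 and Lgr5), and all 3 stood at least 4-fold above the classes compared. No gene of this list was found in 59 of the 107 cells, and 3 or more were found in 6 cells. Star, which moves cholesterol into mitochondria for steroid synthesis, was found in 27.1% of the cells at 75.5 ± 40.8 CPM, against 0.621% of T and NK cells. Amhr2, the receptor for anti-Mullerian hormone, ran from 0 in proximal 3 to 155 CPM in proximal 4. Gata4 was found in 4 cells, Nr5a1 in 3 and Lhx9 in 2, and Amh in none. Esr1, the oestrogen receptor, was 1044, 654, 918, 824 and 964 CPM, similar to smooth muscle (962 CPM), whereas Pgr, the progesterone receptor, stood at 14.1 ± 12.0 CPM against 213 in fibroblasts. Of the proliferation genes, Mki67 was found in 2 cells and Top2a in 6.

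For the comparison of regions, counts were summed per library and tested by edgeR's quasi-likelihood test over the 4 libraries, 2 distal and 2 proximal, leaving out the 18 genes of the rule. Of 4232 genes 8 were called at an adjusted p of 0.05 or less (0.189%), 6 higher and 2 lower in proximal cells, and 744 had an unadjusted p under 0.05. DESeq2 called 6. The count is not stable: it was 0 without the doublet-scored barcodes and 168 without proximal 3, and it was 19 without the epithelium-rule barcodes. The doublet-scored mesothelial barcodes were all distal, where the scoring, set by library size, placed most of its calls. The sections also differ in depth and in the libraries' yield, so region and library quality cannot be told apart, and with pooled animals the p-values measure the spread between libraries, which may be technical.

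The 2 genes that fell in proximal mesothelial cells encode small secreted proteins. Mgp, matrix Gla protein, an inhibitor of calcification, was 2983 CPM in distal 1, 2863 in distal 2, 1765 in distal 3, 177 in proximal 3 and 522 in proximal 4. The regions did not overlap, and the log2 fold change was -2.65 ± 0.50 (SE, edgeR adjusted p = 0.0396). Without each library in turn, which leaves 1 library in a region, the estimate ran from -4.20 (without proximal 4) to -2.28 (without distal 1). Its call was lost without doublet-scored barcodes (edgeR adjusted p = 0.172) and with RLE size factors (0.0773). Fibroblasts of the same libraries gave -1.63 and non-ciliated epithelium -1.28, both called, and neither interaction test below called Mgp. Plac9a was 661, 1799, 595, 177 and 110.4 CPM, a log2 fold change of -2.48 ± 0.46 (edgeR adjusted p = 0.0375), and it lost its call in 7 of 14 alternatives, among them those without distal 1 and without proximal 4. Its difference from the other classes was called in both interaction tests, against fibroblasts (0.43, not called by itself) at -3.30 and against epithelium (2.73) at -5.59. For Mgp as for Plac9a, the 177 CPM in proximal 3 were 3 UMIs.

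The 6 genes that rose were 4 ribosomal or predicted genes and 2 haemoglobins. Rps28, a protein of the small ribosomal subunit, was 110.2 CPM in distal 1, 245 in distal 2, 192 in distal 3, 2120.1 in proximal 3 and 1273 in proximal 4 (log2 3.24 ± 0.44, edgeR adjusted p = 0.00339). The same gene differed by 2.79 in fibroblasts and by 3.39 in epithelium of these libraries, both called, and a difference between the classes was not shown (interactions of 0.20 and -0.47, not called). Gm14303 gave 3.66 ± 0.58 in mesothelial cells, 3.12 in fibroblasts and 3.37 in epithelium, and Rps27rt gave 2.92 ± 0.52, 2.77 and 3.20. Gm7536 gave 3.54 ± 0.58, with 1.59 and 1.60 in the other classes, neither called. Rps27rt and the predicted Gm genes can share reads with copies of other genes, as can the haemoglobins, so their counts are uncertain.

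Hba-a2 and Hbb-bs, alpha and beta globin chains, differed by log2 7.35 ± 0.88 and 4.85 ± 0.83 (edgeR adjusted p = 0.00156 and 0.0215). Hba-a2 was 3.24 CPM in distal 1, 0 in distal 2, 4.68 in distal 3, 118 in proximal 3 and 1207 in proximal 4, and Hbb-bs was 51.9, 40.9, 37.4, 58.9 and 2413. The proximal 4 values came almost wholly from the 1 barcode named above. Without the 4 barcodes that carried haemoglobin or smooth muscle genes Hba-a2 was no longer tested and Hbb-bs gave 1.52 (adjusted p = 0.162).

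**Figure D4:**
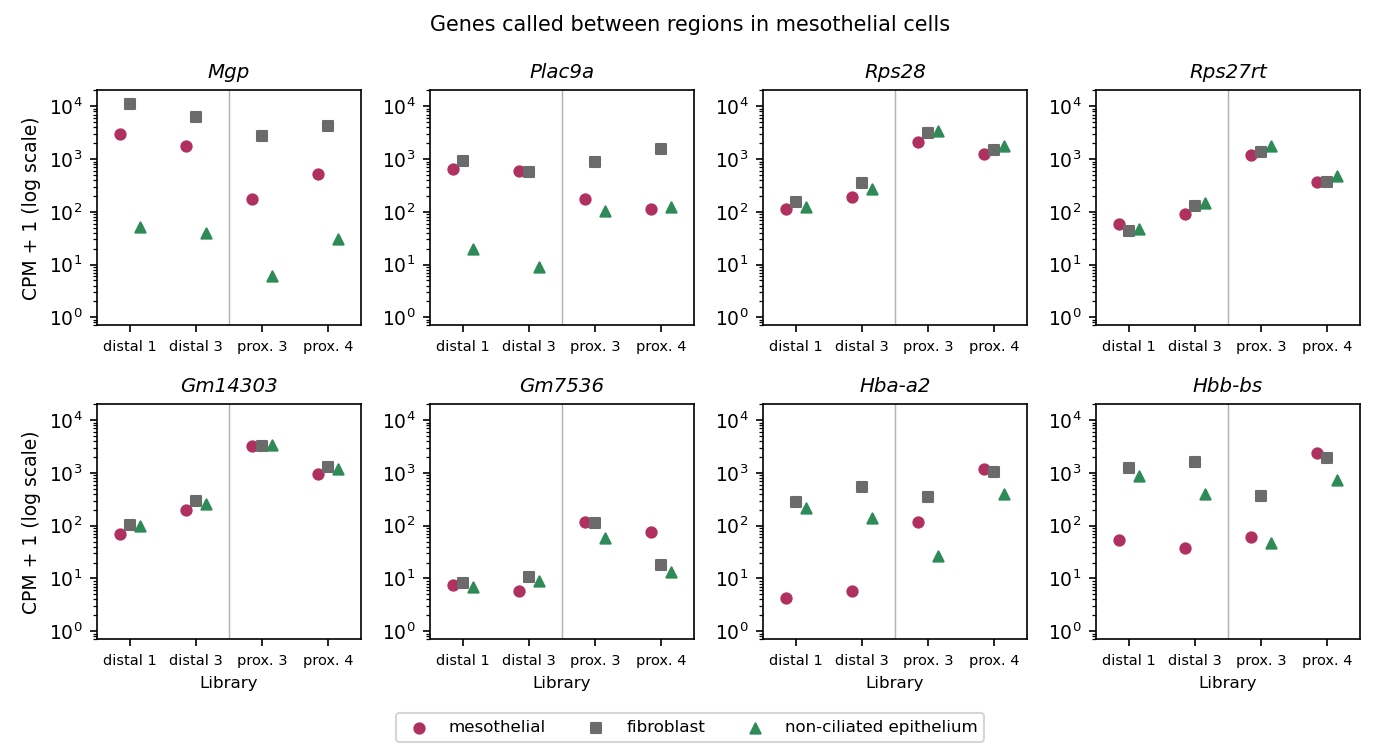
CPM plus 1 on a log scale (vertical axes) of the 8 genes called between regions, per library (horizontal axes), in mesothelial cells (circles), fibroblasts (squares) and non-ciliated epithelium (triangles). Mgp and Rps28 shift the same way in all 3 classes, and Hbb-bs in mesothelial cells reaches 2413 CPM only in proximal 4.

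No member of the 17 gene lists on mesothelial biology was called between regions by this test, which called 8 of 4232 genes (0.189%) in all. The lists held 3 to 31 tested genes each, so at that share a lack of calls is not a result about them. Of the 31 tested genes of the further mesothelial list 21 lay below 0 and 14 had an unadjusted p under 0.05, with a median log2 of -0.72 against -0.05 over all tested genes. Of all 4232 tested genes, 2220 lay below 0 and 744 had an unadjusted p under 0.05. All 6 tested keratin and filament genes lay below 0 (median -1.33). Krt18 was 1112 CPM in distal 1, 1044 in distal 3, 353 in proximal 3 and 368 in proximal 4 (log2 -1.72 ± 0.40, edgeR adjusted p = 0.0766). Il18 gave -2.20 ± 0.53 and Slpi -1.68 ± 0.55 (edgeR adjusted p = 0.0766 and 0.139). Among the other lists the median was lowest for 8 mesenchymal transition genes (-0.62), 8 retinoid genes (-0.44, 5 with an unadjusted p under 0.05), 6 coagulation genes (-0.40) and 5 chemokine genes (-0.38). It was highest for 3 cell-cycle genes (0.77), 9 BMP and TGF-beta genes (0.41), 12 antigen presentation genes (0.38), 12 glycocalyx and junction genes (0.36) and 27 stress and immediate-early genes (0.35). The remaining 6 lists lay between -0.25 and 0.07. Fos, an immediate-early gene that responds to dissociation, was 1469 CPM in distal 1, 327 in distal 2, 3969.7 in distal 3, 5477 in proximal 3 and 5121 in proximal 4, so that the distal libraries differed widely among themselves.

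Whether a regional difference was particular to mesothelial cells was tested as an interaction, with the library as a block, against fibroblasts and against non-ciliated epithelium of the same 4 libraries. Both tests use the same mesothelial sums and are not independent of each other. Against fibroblasts 45 of 7038 genes were called (0.639%), 15 with a higher and 30 with a lower proximal-to-distal ratio in mesothelial cells, and against epithelium 81 of 7024 (1.15%), 27 higher and 54 lower (edgeR adjusted p at or under 0.05). DESeq2 called 11 and 33. Without distal 3 the fibroblast comparison called 1 gene, and without distal 1 it called 15 and the epithelium comparison 12. Without the epithelium-rule barcodes the counts were 102 and 142.

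Complement genes differed from fibroblasts in both called members, C3 and Cfb, of 12 tested. C3 in mesothelial cells was near level between regions (4130.3 and 2926 CPM distal, 2650.2 and 3966 proximal), while in fibroblasts it was 126 and 80.1 CPM distal and 441 and 411 proximal. The interaction was log2 -2.19 ± 0.44 (edgeR adjusted p = 0.000193). The regional difference of C3 was called in fibroblasts (1.72) and not in mesothelial cells (edgeR adjusted p = 0.82).

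Fn1 and Igfbp5, a matrix glycoprotein and a binding protein for insulin-like growth factors, moved in opposite ways. Fn1 was 146 CPM in distal 1, 276 in distal 3, 58.9 (1 UMI) in proximal 3 and 22.1 in proximal 4 of mesothelial cells, and 56.5, 49.9, 68.9 and 184 in fibroblasts (interaction log2 -4.56 ± 0.70, edgeR adjusted p = 5.28e-08). The call was lost in 3 of 12 alternatives, without distal 3, without proximal 4 and without the epithelium-rule barcodes (-2.55, edgeR adjusted p = 0.0863). Igfbp5 was 1913, 1484, 3298 and 3223 CPM in mesothelial cells and 111, 131, 0 and 50.7 in epithelium (interaction 2.92), and it was also called against fibroblasts (1.61 ± 0.44, edgeR adjusted p = 0.0371).

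Of the 32 further mesothelial genes tested against fibroblasts, 1 was higher (Igfbp5) and 2 lower (C3, Cd200), and of the 31 tested against epithelium 4 were higher (Igfbp5, Ildr2, Gata6 and Podxl) and 1 lower (Slc39a8). Called members of other lists against fibroblasts included the Wnt genes Sfrp2 (2.53 ± 0.63) and Wnt5b (-5.56 ± 1.26), the BMP target Id2 (2.93 ± 0.63), the stress gene Gadd45b (2.18 ± 0.54) and 4 haemoglobin-list genes. The contractile gene Acta2 (-3.45) was called too, on 321 CPM in distal 1 against 14.0 in distal 3, 0 in proximal 3 and 14.7 in proximal 4. In distal 1, 120 of 191 smooth-muscle-list UMIs came from 2 barcodes, and their part in the Acta2 value was not tested. Against epithelium they included the metallothioneins Mt2 and Mt1, the MHC partner B2m (-2.40), the BMP target Id1 (-3.20), the cell-cycle gene Ccnd2 (-3.67) and the chemokine Cxcl14 (-6.14). Mt2, which binds zinc, was 801, 918, 1355 and 1163 CPM in mesothelial cells and 76.7, 176, 4682 and 3472 in epithelium (interaction -4.78 ± 0.65, edgeR adjusted p = 2.35e-10).

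Clic3 and Lrp2 kept their calls against epithelium in all 13 alternatives run, although those without a library leave 1 library in a region. Clic3, a chloride channel family member, was 143 CPM in distal 1 and 79.6 in distal 3 of mesothelial cells and 0 in both proximal libraries, whereas epithelium had 1.35, 1.13, 20.6 and 17.5 CPM. Lrp2, the endocytic receptor megalin, was 129.7, 65.5, 0 and 162 CPM in mesothelial cells and 0.4, 0, 92.7 and 40.2 in epithelium (interaction -7.32 ± 0.85, edgeR adjusted p = 2.57e-14). Nrg1, an EGF-family ligand, was called against fibroblasts with 1 library setting the sign: mesothelial values were 13.0, 28.1, 0 and 206 CPM, fibroblast values 162, 112, 27.5 and 43.6, and without proximal 4 the estimate was -5.65 in place of 4.95. Fitted interactions of genes with a library at 0 depend on the prior count and are not bounds.

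**Figure D5:**
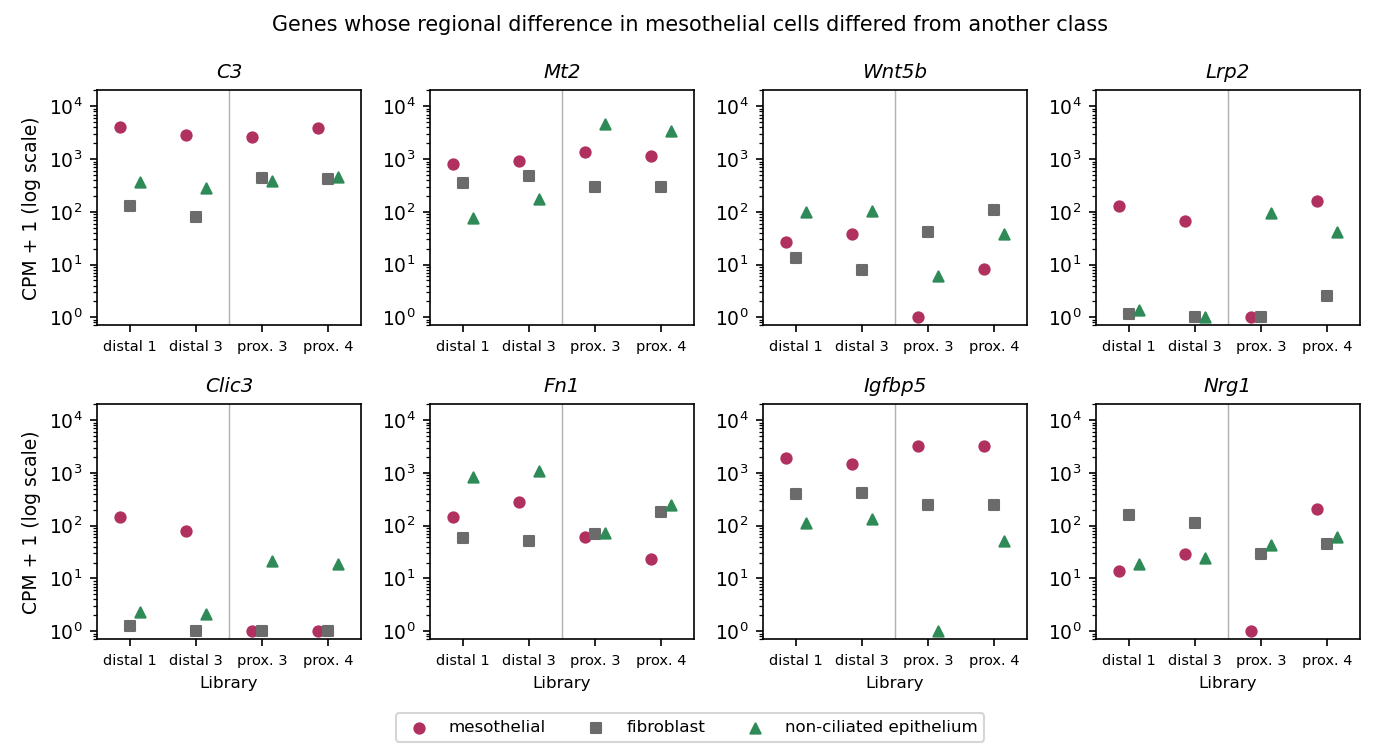
CPM plus 1 on a log scale (vertical axes) of 8 genes called in an interaction test, per library (horizontal axes), in mesothelial cells (circles), fibroblasts (squares) and non-ciliated epithelium (triangles). C3 in fibroblasts and Mt2 in epithelium are higher in the proximal libraries while the mesothelial values stay level, and Clic3 in mesothelial cells is at 0 in both proximal libraries.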

How the data were processed

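Single-cell RNA libraries from 3 distal and 3 proximal pools were read as deposited UMI count matrices of 50559 genes. The authors made these counts with Cell Ranger on mm39 (version 6.1.2 per the submitters' processing notes, 7.0.0 per the file headers). The description numbers distal group 3 as 4, and title numbers are used. The members and gene lists were chosen with earlier results of these data known. Named genes were the rule's 6 genes, called genes by size, the 20 largest ratios over other classes at 50 CPM or more, and called or abundant list members, and a few further genes were chosen after their values were seen.

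Counts were summed per library and class, filtered (filterByExpr, minimum count 10, total 15) and fitted with edgeR 4.0.16 (TMM, quasi-likelihood, Benjamini-Hochberg 0.05) in R 4.3.3. The planned minimum of 10 mesothelial cells left 1 proximal library, so the planned fallback of 5 was used. The fit was tested on simulated data. Alternatives included DESeq2 1.42.0, other filters and left-out libraries. Doublets were scored with scikit-learn 1.9.0 and kept. Their number per library was set at 0.8% of its barcodes for every 1000 barcodes it held. Shares were compared by an exact permutation test in scipy 1.17.1. Mesothelial UMIs per library ranged from 16980 to 308452 where cells were found, which limits precision.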

Additional observations from a re-analysis of the deposited data

Results flagged for a closer look

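For 20 genes the difference between regions in mesothelial cells differed from that in another class by the interaction test itself (edgeR, 4 libraries), and each value is the log2 proximal-to-distal ratio in mesothelial cells minus that in the other class. Against fibroblasts the genes with the highest values were Hbb-bt (11.21), Hba-a2 (6.56), Nrg1 (4.95), Hbb-bs (4.9) and Hba-a1 (4.05). Those with the lowest were Itgbl1 (-10.73), Wnt5b (-5.56), Ackr3 (-4.83), Myh11 (-4.8) and Fn1 (-4.56). Against non-ciliated epithelium the highest were Hbb-bt (12.04), Lgr6 (9.43), Gng11 (8.68), Gata6 (8.59) and Hba-a2 (7.26). The lowest were Clic3 (-14.32), Emp1 (-11.59), Lrp2 (-7.32), Zdbf2 (-7.08) and Ggta1 (-6.44). In proximal 4, 738 of 763 haemoglobin-list UMIs came from 1 barcode, and in distal 1, 120 of 191 smooth-muscle-list UMIs (the list that holds Myh11) came from 2. Values of 8 or more in size belong to genes with a sum at 0 in at least 1 library and depend on the prior count.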

How the results depend on the processing

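The share difference of 1.47 points stayed above 0 in all its alternatives but ran from 0.891 (without proximal 4) to 2.37 (without proximal 2) over the left-out libraries, and was 0.952 with at least 4 of 6 rule genes. The count of genes at least 4-fold higher than in other classes (240) ran from 193 to 331, and 159 of the 240 remained without proximal 3. No filter was changed for this count. The counts of called genes moved, and each fit without a library leaves 1 library in a region. Between regions 8 genes were called, 336 with at least 4 of 6 rule genes (which leaves proximal 4 alone, assumed to vary like the others), 0 without doublet-scored barcodes (473 at an unadjusted p under 0.05), 28 without barcodes that meet another class rule, 4 with RLE size factors, 39 with no filter on low counts, 16 with sums thinned to the smallest library, 19 without epithelium-rule barcodes, and 16 to 168 without each library in turn. Against fibroblasts 45 were called, 106 with at least 4 of 6 rule genes, 73 without doublet-scored barcodes, 11 with DESeq2, 102 without epithelium-rule barcodes, and 1 to 50 without each library. Against epithelium 81 were called, 33 with DESeq2, 142 without epithelium-rule barcodes, and 12 to 79 without each library. Among named genes 5 changed direction without 1 library: over the left-out libraries Hbb-bs between regions ran from -0.081 (without proximal 4) to 5.61, Hba-a1 from -8.64 (proximal 4) to 6.69, Nrg1 from -5.65 (proximal 4) to 5.57 and Myh11 from -12.10 to 4.50 (distal 1) against fibroblasts, and Gng11 against epithelium from -0.46 (proximal 4) to 9.40. Without the 4 haemoglobin or smooth muscle barcodes Hba-a1 was -0.44. The causes were not tested. Over the tests of single named genes and their alternatives, 257 values stayed on their side of the threshold, 86 lost it and 6 reversed. Exclusion of the epithelium-rule and of the haemoglobin or muscle barcodes, and the minimum of 2 cells, were chosen after seeing the data. No paired analysis was possible for the gene tests because the 4 libraries share only 1 group number. For the share, the replicate block over groups 2 and 3 gave a mean difference of 1.01 points. The 2 groups differed in sign, with -0.0461 points in group 2 and 2.07 in group 3. As the description numbers distal group 3 as 4, the pairing by title number is uncertain. The 107 cells, and 8 of them in the shallowest library, limit all regional values.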
